A study of Homo sapiens with 24 samples.

Results

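The COP9 signalosome is a protein complex that removes the ubiquitin-like protein NEDD8 from cullins, the scaffolds of the largest class of ubiquitin ligases. The 9 subunit genes described here are GPS1 (ENSG00000169727), COPS2 (ENSG00000166200), COPS3 (ENSG00000141030), COPS4 (ENSG00000138663), COPS5 (ENSG00000121022), COPS6 (ENSG00000168090), COPS7A (ENSG00000111652), COPS8 (ENSG00000198612) and COPS9 (ENSG00000172428). They were chosen by Ensembl identifier as the subunits other than COPS7B, the subunit that the study overexpressed. All 9 are listed in every count table, among 20426 genes that the tables share, and all 9 were among the 11938 genes that passed the filter on low counts.

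The 24 libraries came from 6 cultured human colon cell populations, each with 2 libraries of input RNA (INPUT) and 2 of ribosome-protected fragments (RPF, called footprints here). The populations were 841CON, labelled as normal colon epithelium and wild type, and the wild-type colon cancer lines HCT116, HCT15 and SW620. HCT15 was also studied in a pair of derived forms, one labelled PLVX (called the vector line here, and given as wild type in the labels) and one overexpressing COPS7B. All cells were treated with cycloheximide before lysis, which holds elongating ribosomes in place. By its design text, the study set the translational efficiency of the cancer lines against that of 841CON. Translational efficiency (TE) is taken here as footprint CPM over RNA CPM, where CPM is counts per 1e+06 after scaling. HCT15 was grown in DMEM, HCT116 in RPMI-1640, 841CON in EMEM, and SW620 in L15 in an air incubator, so medium and line cannot be told apart. Each comparison with 841CON used the same 841CON libraries. The epithelial label of 841CON and the level of COPS7B were not analysed here, because the tables used here do not pair the other identifiers with gene names.

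COPS5 carries the metalloprotease site that cleaves NEDD8 from the cullin, and COPS6 is its catalytically inactive partner with the same fold. GPS1, COPS2, COPS3, COPS4, COPS7A and COPS8 share the PCI domain, through which they form the scaffold of the complex, and COPS9 is a very small acidic subunit. COPS7A and COPS7B are paralogs that take the same place in alternative forms of the complex. Removal of NEDD8 lets cullin ligases exchange their substrate receptors, and COPS5 is found at raised levels in many tumours.

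RefSeq promoter windows (GRCh38.p14, 250 bases before to 50 after an annotated start) were matched by symbol for 8 of the 9 genes, with 13 windows in all. No window of COPS5 was used. The 150 bases before the first listed start are shown for COPS3, COPS4 and COPS6, since COPS3 is the member with higher RNA in each cancer line, and COPS4 in HCT116 and COPS6 in SW620 had the lowest fitted footprint changes against 841CON. Capitals mark matches, on either strand, to any of 6 short motifs. These are the GC box (letters GGGCGG), the CCAAT box, the core bound by ETS factors (letters CCGGAAG), part of the cyclic AMP response element (letters TGACGT), a YY1-type motif (letters AAGATGGC) and the TATA box (letters TATAAA).
COPS3 chr17:17281247-17281396 (- strand): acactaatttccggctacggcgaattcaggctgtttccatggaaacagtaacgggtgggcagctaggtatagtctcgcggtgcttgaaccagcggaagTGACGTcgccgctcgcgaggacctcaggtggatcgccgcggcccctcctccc
COPS4 chr4:83035033-83035182 (+ strand): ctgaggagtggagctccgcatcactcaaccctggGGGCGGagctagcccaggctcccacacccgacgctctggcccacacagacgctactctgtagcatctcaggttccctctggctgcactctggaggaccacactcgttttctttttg
COPS6 chr7:100088819-100088968 (+ strand): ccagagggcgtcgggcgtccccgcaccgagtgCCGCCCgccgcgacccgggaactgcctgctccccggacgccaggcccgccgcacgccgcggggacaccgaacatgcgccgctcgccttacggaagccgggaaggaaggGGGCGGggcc
The COPS3 stretch held the cyclic AMP motif and no GC box, while those of COPS4 and COPS6 held GC boxes. Over all 13 windows, a GC box was found in 10 windows of 7 genes, against 45% of all 35116 windows of this length. Windows of the same gene may overlap, and those of COPS9 hold the same matches at shifted positions (GC box on the + strand at -45 and -87). The same site may thus count in more than 1 window. The CCAAT box was found in 5 windows (34.6% of all windows) and the ETS core in 4 windows of COPS7A, COPS9 and GPS1 (10.3%). The cyclic AMP motif was found in 1 window each of COPS3 and COPS8 (7.98%), the YY1-type motif in 1 window of COPS4 (2.89%) and the TATA box in 0 (11.5%). These motifs were picked after the windows had been read. The ETS core ends in the letters with which the YY1-type motif begins, so matches to both may overlap, and a match is a description of the letters, not of a bound factor.

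INPUT libraries held 960395 to 6596429 counts in the shared genes and RPF libraries 84262 to 4679279, with the SW620 footprints the shallowest. CPM values are scaled by trimmed means within each assay, and changes are log2 ratios with their standard error from edgeR's quasi-likelihood fit of all 24 libraries. The threshold was an adjusted p (Benjamini-Hochberg, over all genes tested) under 0.05. Nothing in the labels ties the 2 libraries of a group to separate cultures, and each p-value then reflects library spread alone, possibly technical. In 4 groups (both HCT116 assays and the footprints of 841CON and COPS7B) the libraries differed by only 1.40 to 1.70 times sampling noise (chi-square per gene), against 4.12 to 63.9 times in the other 8. The 841CON INPUT libraries stood farthest apart, and INPUT replicate 2 over replicate 1 gave ratios from 0.488 for GPS1 to 8.02 for COPS2. Members whose call in RNA or TE came or went when 1 library of this pair was left out are named with those values. Fewer cells expressing a gene and less RNA per cell cannot be told apart in these lysates.

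**Figure D1:**
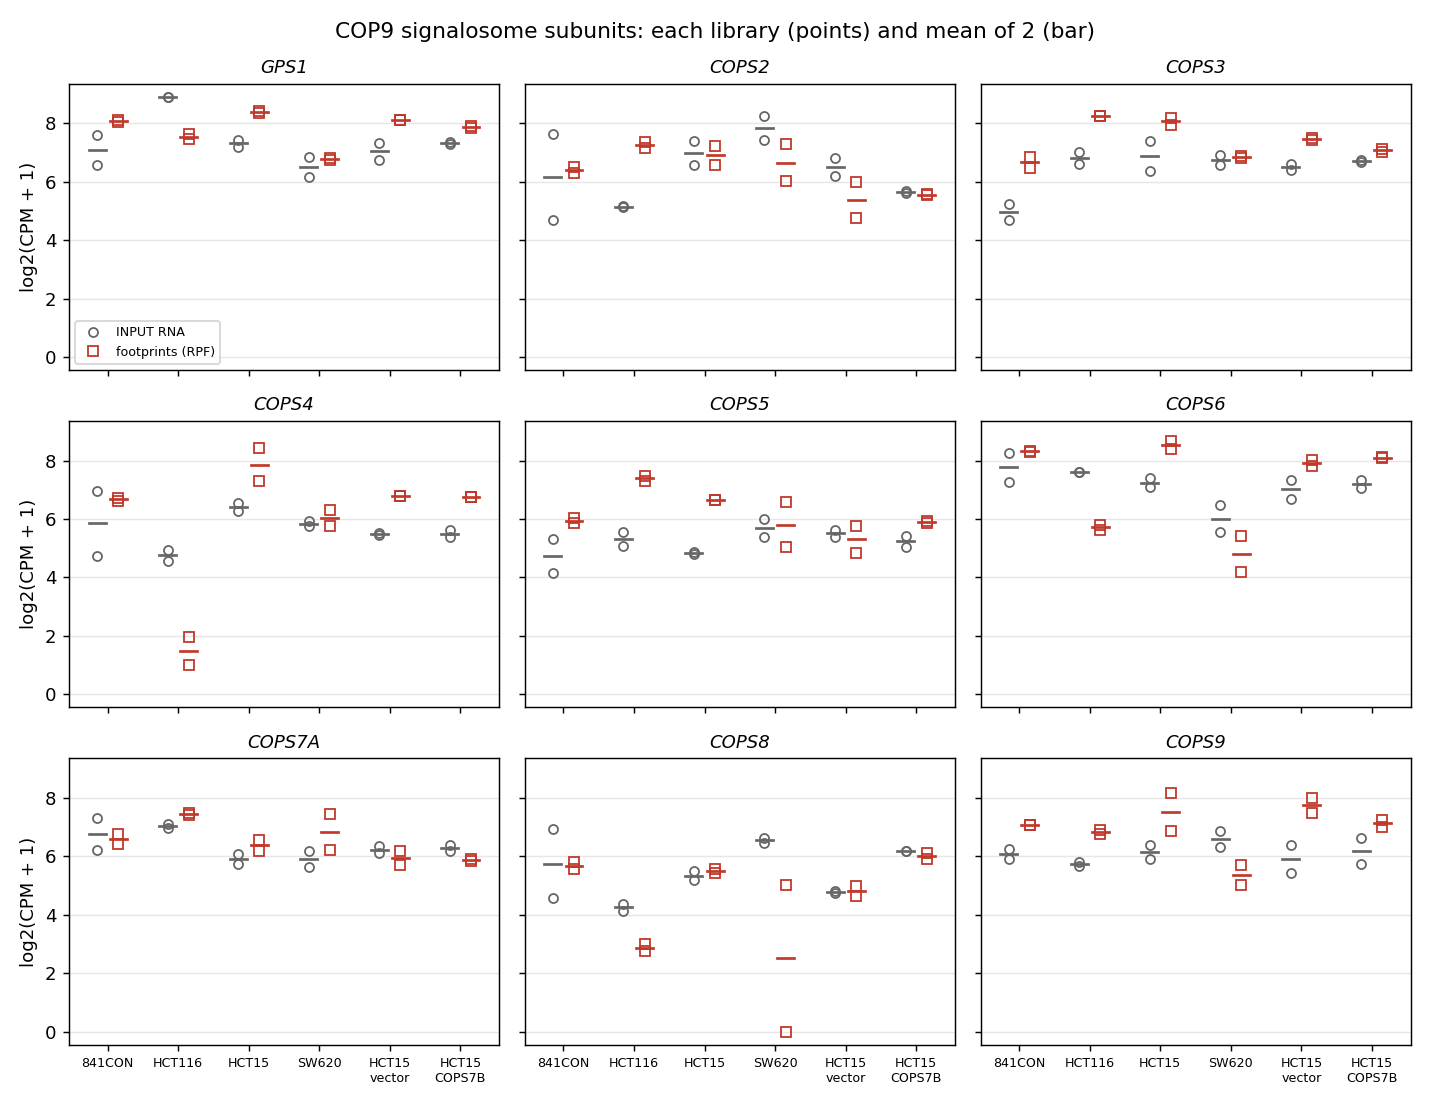
Level of each subunit gene as log2(CPM + 1) in every library (points) with the mean of the 2 log values (bars), for INPUT RNA in grey circles and footprints in red squares, in the 6 populations. The footprints of COPS4 in HCT116 and of COPS6 in HCT116 and SW620 lie far below those of the other populations, those of COPS8 are low in HCT116 and in SW620, which overlap, and the 841CON INPUT pairs of COPS2, COPS4 and COPS8 are the widest.

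In HCT116 the subunits did not move together. Relative to 841CON, footprints rose for COPS3 and COPS5, fell for COPS4, COPS6 and COPS8, and did not pass for the other 4 genes. RNA passed for 5 of the 9 genes, higher for GPS1 and COPS3 and lower for COPS2, COPS4 and COPS8, where 40.1% of all 11938 genes passed (19.0% higher and 21.0% lower). Footprints passed for 5 of 9, against 59.3% of all genes (22.6% higher and 36.7% lower). TE passed for 4 of 9, higher for COPS2 and lower for GPS1, COPS4 and COPS6, against 45.6% of 8502 genes tested (15.1% higher and 30.6% lower). The 9 members' median log2 change was -0.25 in RNA (all tested genes -0.04), -0.26 in footprints (-0.25) and -0.26 in TE (-0.59). The members' shares are near the background, so HCT116 is described here by its single genes. Among genes with RNA in HCT116 (mean INPUT count of 10 or more), 18.9% had no footprint count there. The share of such genes was 4.58% in 841CON, 1.17% in HCT15 and 5.31% in SW620, the line with the shallowest footprint libraries. The part of this gap in the lower footprints of COPS4, COPS6 and COPS8 was not tested.

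COPS4, a scaffold subunit that lies next to the catalytic pair, was nearly without footprints in HCT116. It had 1 and 3 footprint counts there, or 0.989 and 2.91 CPM, against 98.2 and 103 CPM in 841CON, 156 and 343 in HCT15, and 77.5 and 52.8 in SW620. Its RNA in HCT116 stood at 22.7 and 29.7 CPM from 34 and 60 counts. The message was thus detected in HCT116 while its footprints lay below those of every other library. The pooled footprint level was 51.4-fold lower than in 841CON, with a 95% Poisson interval of 20.1 to 189 that covers counting error in HCT116 only. In edgeR's fit the footprint change was -5.64 ± 0.735 (adjusted p = 3.6e-06) and the TE change -4.09 ± 0.922 (adjusted p = 0.0015). Both calls were kept in every alternative run, with TE changes between -5.69 and -3.44 and adjusted p between 1.6e-05 and 0.031.

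COPS6, the inactive partner of the catalytic subunit, also had few footprints in HCT116. Its footprints were 54.4 and 48.5 CPM in HCT116 and 322 and 312 in 841CON, while its RNA was 193 and 194 CPM in HCT116 and 155 and 303 in 841CON. Footprint libraries of the 2 lines did not overlap, whereas the HCT116 RNA values lay between the 841CON ones. The footprint change was -2.62 ± 0.385 (edgeR adjusted p = 1.3e-05) and the TE change -2.38 ± 0.515 (edgeR adjusted p = 0.0011). With close replicate pairs summed into 1 library the TE call was lost at an adjusted p of 0.056, the highest among its 16 alternatives, and the lowest was 2.1e-05.

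GPS1, a scaffold subunit also called CSN1, had more RNA and a lower TE in HCT116. Its RNA was 472 and 479 CPM, above every other INPUT library, the next highest being 191 in 841CON replicate 1. Its footprints were 176 and 195 CPM in HCT116 and 273 and 262 in 841CON. RNA rose 3.37-fold (log2 1.75 ± 0.333, edgeR adjusted p = 0.00041), TE fell by 2.28 ± 0.465 on the log2 scale (edgeR adjusted p = 0.00068), and footprints did not pass (log2 -0.53 ± 0.327, edgeR adjusted p = 0.18). Footprints passed as lower with DESeq2 (0.033) and with only the compared libraries fitted (3.8e-06), the range over the alternatives being 3.8e-06 to 0.73. The RNA and TE calls were kept in every alternative run. GPS1 overlaps RFNG on chromosome 17 (GPS1 at 82050932 to 82057470 in GRCh38.p14), and how reads in the shared stretch were counted is not given in the sources used here.

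COPS3 and COPS5 had more footprints in HCT116. COPS3, a scaffold subunit, had footprints at 302 and 303 CPM against 114 and 88.0 in 841CON, and RNA at 96.7 and 128 CPM against 24.5 and 37.0. Both assays rose by like amounts, 3.57-fold in RNA and 2.98-fold in footprints (edgeR adjusted p = 0.00036 and 0.00049), and the TE change of -0.26 ± 0.467 did not pass. COPS5, the catalytic subunit, had footprints at 178 and 158 CPM against 64.2 and 56.7 in 841CON (2.78-fold, edgeR adjusted p = 0.0067). Its RNA overlapped between the lines, at 32.7 and 46.5 CPM in HCT116 and 16.97 and 38.9 in 841CON, and neither RNA (log2 0.45 ± 0.44) nor TE (1.02 ± 0.615) passed. Both move with the 841CON RNA pair: without replicate 1, RNA was at 0.06 and TE passed at 1.41 (adjusted p = 0.043), and without replicate 2, RNA was at 1.23 (0.08) and TE at 0.24 (0.78), TE ranging from 0.043 to 0.78 in adjusted p. The COPS5 footprint call was lost with close pairs summed (adjusted p = 0.14) and without 841CON RPF replicate 2 (0.053), the range over its alternatives being 7.1e-09 to 0.14.

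COPS2 and COPS8 show how much rests on the 841CON RNA. COPS2, a scaffold subunit that contacts the cullin, had RNA at 24.5 and 197 CPM in the 841CON libraries and 34.7 and 34.1 in HCT116. Its RNA change of -1.72 ± 0.629 passed (edgeR adjusted p = 0.035) but was 0.49 without 841CON INPUT replicate 2 (adjusted p = 0.56), and its TE change of 2.58 ± 0.875 (edgeR adjusted p = 0.022) became 0.36 (adjusted p = 0.70). The TE call of COPS2 was lost in 9 of 16 alternatives, with adjusted p from 0.00031 to 0.70. COPS8, the smallest scaffold subunit, had RNA at 22.6 and 121 CPM in 841CON and 16.7 and 19.8 in HCT116, and footprints at 55.0 and 45.9 CPM against 6.92 and 5.83. Its footprints fell 7.88-fold (log2 -2.98 ± 0.678, edgeR adjusted p = 0.00092), a call lost at 0.051 with close pairs summed and otherwise kept (lowest 1.5e-09). The RNA change of -2.01 ± 0.588 (edgeR adjusted p = 0.01) was -0.30 without 841CON INPUT replicate 2, where the TE change moved from -0.97 ± 0.884, which did not pass, to -2.68 with an adjusted p of 0.0062 (range 0.0062 to 0.75). Without the same library the RNA change of COPS4 went from -1.55 to 0.05, so the size of the RNA changes of COPS2, COPS4 and COPS8 in HCT116 depends on that library. These 3 RNA calls were also lost without either HCT116 INPUT library and with close pairs summed. With only the compared libraries fitted they were lost at adjusted p of 0.28, 0.25 and 0.18 by edgeR.

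COPS7A and COPS9 did not pass in RNA, footprints or TE in HCT116. COPS7A, the paralog of the overexpressed subunit, had footprints at 180 and 171 CPM against 109 and 85.7 in 841CON (log2 0.85 ± 0.382, edgeR adjusted p = 0.063). The libraries did not overlap, and the change passed at 0.012 when only library size was used for scaling (range 6.0e-05 to 0.33). COPS9 had footprints at 107 and 118 CPM against 134 and 135, with changes of -0.26 ± 0.426 in footprints and 0.11 ± 0.605 in TE. Its footprints passed with only the compared libraries fitted, at 0.013 (range 0.013 to 0.98).

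**Figure D2:**
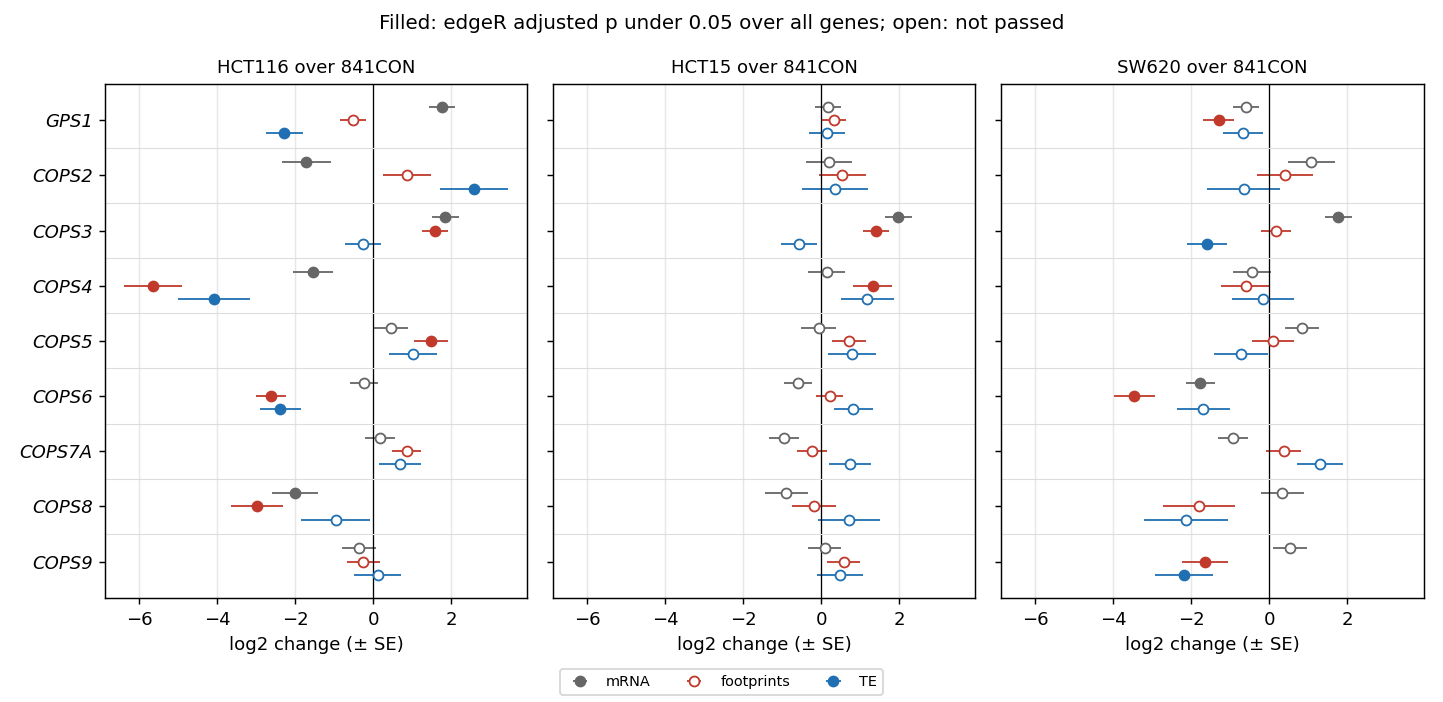
Log2 change of RNA (grey), footprints (red) and TE (blue) of each subunit gene in HCT116, HCT15 and SW620 over 841CON, with the standard error of edgeR's fit; filled points passed an adjusted p under 0.05 over all genes. COPS4 in HCT116 is the farthest point, at -5.64 in footprints, and the RNA of COPS3 is above 841CON in every cancer line.

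In HCT15, COPS3 had more RNA and footprints and COPS4 more footprints than in 841CON, and the other 7 genes did not pass. RNA passed as higher for 1 of 9 genes (35.4% of all genes, 16.7% as higher), footprints as higher for 2 (49.9%, 28.9% as higher) and TE for 0 (16.7% of 8876 genes). No member had an unadjusted p under 0.05 for TE in edgeR's test, against 2733 of 8876 genes. DESeq2 also called 0 members, against 1880 genes. The members' median log2 changes were 0.09 in RNA, 0.54 in footprints and 0.71 in TE, against -0.02, 0.27 and 0.30 over all tested genes. All members but COPS3 had a TE change above 0, from 0.14 ± 0.458 for GPS1 to 1.18 ± 0.683 for COPS4, none of which passed. These signs are not stable: TE of GPS1, COPS2, COPS4, COPS8 and COPS9 was below 0 in 1 or more alternatives. Without 841CON INPUT replicate 2, COPS2 was at -1.86, COPS8 at -0.99 and COPS4 at -0.42 (adjusted p = 0.062, 0.28 and 0.63), and without its replicate 1 GPS1 was at -0.56 (0.35). COPS4 TE passed as higher without replicate 1 (1.77, adjusted p = 0.016, range 0.016 to 0.69).

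COPS3 RNA was 165 and 80.5 CPM in HCT15 against 24.5 and 37.0 in 841CON (3.91-fold, edgeR adjusted p = 0.00023), and its footprints were 247 and 286 CPM against 114 and 88.0 (2.62-fold, edgeR adjusted p = 0.0019). Neither pair of libraries overlapped with that of 841CON, and the footprint call was lost with close pairs summed (0.084, the highest of its range from 0.00046). COPS4 footprints were 156 and 343 CPM in HCT15 against 98.2 and 103 (2.48-fold, edgeR adjusted p = 0.032), which is the highest footprint level of COPS4 in the series, with 2 libraries that differ more than 2-fold. Without HCT15 RPF replicate 2 the change was 0.63 on the log2 scale with an adjusted p of 0.37, and the call was lost in 6 of 11 alternatives (range 0.0096 to 0.37). COPS7A RNA was 67.2 and 52.1 CPM against 72.6 and 158 in 841CON (log2 -0.96 ± 0.38, edgeR adjusted p = 0.055), and it passed as lower with DESeq2 (-1.07, adjusted p = 0.015). Over the alternatives its log2 change ran from -1.30, without 841CON INPUT replicate 1, to -0.28. The 841CON RNA pair bears on other members too. Without its replicate 2, the RNA of COPS2 and COPS4 passed as higher in HCT15 (log2 2.40 and 1.73, adjusted p = 0.0044 and 0.008). Without its replicate 1, GPS1 passed as higher (0.87, 0.037), and COPS6 (-0.89, 0.049) and COPS8 (-1.51, 0.0097) as lower.

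In SW620, COPS6 was lower at both levels and COPS3 was higher in RNA alone. RNA passed for 2 of 9 genes, 1 in each direction (44.4% of all genes, 21.9% higher and 22.5% lower). Footprints passed as lower for GPS1, COPS6 and COPS9 (37.8% of all genes, 18.9% lower), and TE as lower for COPS3 and COPS9 (18.1% of 8396 genes, 9.70% lower). The members' median log2 changes were 0.33 in RNA, -0.61 in footprints and -0.73 in TE, against 0.03, -0.09 and -0.28 over all tested genes. The SW620 footprint libraries held 3 to 27 pooled counts per member, so single values there carry wide counting error. Scaling matters most here: over all genes, 46.4% of TE calls were higher, against 63.1% with library size alone and 68.1% with DESeq2, and 50% of footprint calls, against 65.7% and 64.4%. None of the members' calls in SW620 turned direction under these scalings, but several were lost under both. With library size alone and with DESeq2, the adjusted p was 0.13 and 0.056 for GPS1 footprints and 0.16 and 0.099 for COPS9 footprints. For TE it was 0.094 and 0.10 for COPS3 and 0.086 and 0.098 for COPS9. The RNA calls of COPS3 and COPS6 and the footprint call of COPS6 were kept under both.

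COPS6 RNA in SW620 was 46.0 and 87.6 CPM against 155 and 303 in 841CON (3.41-fold lower, log2 -1.77 ± 0.37, edgeR adjusted p = 0.00079). Its footprints came from 2 and 4 counts, or 17.2 and 42.2 CPM, against 322 and 312 in 841CON. The pooled footprint level was 11.1-fold lower, with a Poisson interval of 5.12 to 30.4, and the fitted change of -3.46 ± 0.529 (edgeR adjusted p = 5.5e-05) passed in every alternative run. The TE change of -1.69 ± 0.672 did not pass (edgeR adjusted p = 0.085). Without 841CON INPUT replicate 2 it was -2.28 with an adjusted p of 0.017 (range 0.017 to 0.34). The RNA call was lost only with the compared libraries alone (0.059, lowest 1.8e-06).

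COPS3 RNA in SW620 was 93.1 and 119 CPM (3.38-fold above 841CON, edgeR adjusted p = 0.00047), while its footprints of 112 and 116 CPM stood beside 114 and 88.0 in 841CON (log2 0.17 ± 0.393, not passed). Its TE fell by 1.59 ± 0.516 on the log2 scale (edgeR adjusted p = 0.038), a call that was lost in 12 of 17 alternatives (adjusted p 0.019 to 0.19). COPS9, the smallest subunit, had footprints at 51.7 and 31.7 CPM against 134 and 135, from 6 and 3 counts, and RNA at 116 and 78.5 CPM against 58.5 and 74.8. Its footprints (log2 -1.66 ± 0.589, edgeR adjusted p = 0.032) and TE (-2.19 ± 0.733, edgeR adjusted p = 0.043) passed, and these calls were lost in 7 of 11 and 13 of 17 alternatives (adjusted p 0.014 to 0.18 and 0.029 to 0.16). GPS1 footprints were 112 and 106 CPM against 273 and 262 (2.46-fold lower, edgeR adjusted p = 0.014), and the call was lost in 5 of 11 alternatives (0.0048 to 0.13), among them scaling by library size alone. COPS8 had 0 and 3 footprint counts in SW620, with RNA at 87.6 and 97.3 CPM. The pooled level was 3.55-fold below 841CON with a Poisson interval of 1.21 to 17.2, and neither footprints (edgeR adjusted p = 0.13) nor TE (edgeR adjusted p = 0.18) passed. Without 841CON INPUT replicate 2, RNA passed as higher for COPS2 (log2 3.28, adjusted p = 0.00038), COPS5 (1.61, 0.02) and COPS8 (2.03, 0.0057) and as lower for GPS1 (-1.05, 0.014), and TE as lower for COPS2 (-2.87, 0.012) and COPS8 (-3.84, 0.0043). Without its replicate 1, COPS4 RNA passed as lower (-1.19, 0.017), and the TE calls of COPS3 (-1.31, 0.074) and COPS9 (-1.99, 0.08) were lost.

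COPS7A did not pass in SW620. Its RNA was 49.3 and 72.0 CPM against 72.6 and 158 in 841CON (log2 -0.93 ± 0.387, edgeR adjusted p = 0.057), and its footprints, from 20 and 7 counts, were 172 and 73.9 CPM against 109 and 85.7. The footprint libraries overlapped, and the TE change was 1.30 ± 0.588 (edgeR adjusted p = 0.13). RNA passed as lower with DESeq2 (0.022) and without 841CON INPUT replicate 1 (-1.43, 0.0035), with a range of 0.0035 to 0.65. TE passed as higher under the same alternatives (1.71, 0.028 and 1.79, 0.022), with a range of 0.022 to 0.66.

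COPS3 was the member whose RNA passed as higher in all 3 cancer lines, by 3.57-fold, 3.91-fold and 3.38-fold. Of all genes, 19.0%, 16.7% and 21.9% passed as higher in these lines, and the share passing in all 3 was not counted. With only the libraries of the line and 841CON fitted, RNA passed for 0 genes in all in HCT15 and 2747 in SW620. The 3 comparisons share the 841CON libraries, in which COPS3 RNA rested on 26 and 211 counts. The call was lost in HCT15 and in SW620 when only the libraries of the line and 841CON were fitted (adjusted p = 0.11 and 0.060, the highest over the alternatives of each, with lowest values of 2.7e-07 and 5.0e-06), and in HCT116 it was kept in all 11 alternatives.

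The cancer lines were then compared among themselves by an F test that does not use the 841CON levels. RNA differed for 6 of 9 members (46.0% of all genes), footprints for 6 (66.1%) and TE for 5 (52.7% of 8304 genes). COPS4 and COPS6 had the smallest adjusted p in footprints (1.7e-06 and 2.5e-06) and in TE (0.00051 and 0.00025) by edgeR, and both genes passed for footprints and TE in every alternative run. GPS1 had the smallest in RNA (edgeR adjusted p = 5.9e-05), with HCT116 at 475 ± 5.22 CPM, HCT15 at 159 ± 18.6 and SW620 at 91.8 ± 30.7 (SD, n = 2). The RNA and footprint calls of GPS1 were also kept in every alternative run, and each of the other calls was lost in 1 or more. COPS3 RNA did not pass (edgeR adjusted p = 0.86), at 112 ± 22.2, 123 ± 59.6 and 106 ± 18.6 CPM in the same order. COPS5 passed in none of the 3 tests (edgeR adjusted p = 0.22, 0.058 and 0.078 for RNA, footprints and TE), although its footprints in HCT116 (178 and 158 CPM) lay above those in HCT15 (99.3 in each library) and SW620 (94.7 and 31.7).

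Within each line, TE was ranked over 9404 to 11022 genes whose INPUT libraries averaged 10 counts or more, after adding 0.5 CPM to both levels. Most subunits stood in the upper part of this ranking. The median percentile over the 6 populations was 87.4 for COPS9, 85.5 for COPS3, 84.9 for COPS5, 82.5 for COPS4, 81.5 for GPS1, 77.8 for COPS6, 60.1 for COPS7A, 49.5 for COPS2 and 46.5 for COPS8. COPS3 kept the narrowest range, from 69.6 in SW620 to 93.1 in 841CON. COPS2 had the widest, from 19.4 in the vector line to 94.7 in HCT116. COPS4 stood at 29.7 in HCT116, where 18.9% of the ranked genes had no footprint count at all, and at 97.1 in the COPS7B line, where 1 gene had none. These ranks are a description and were not tested.

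**Figure D3:**
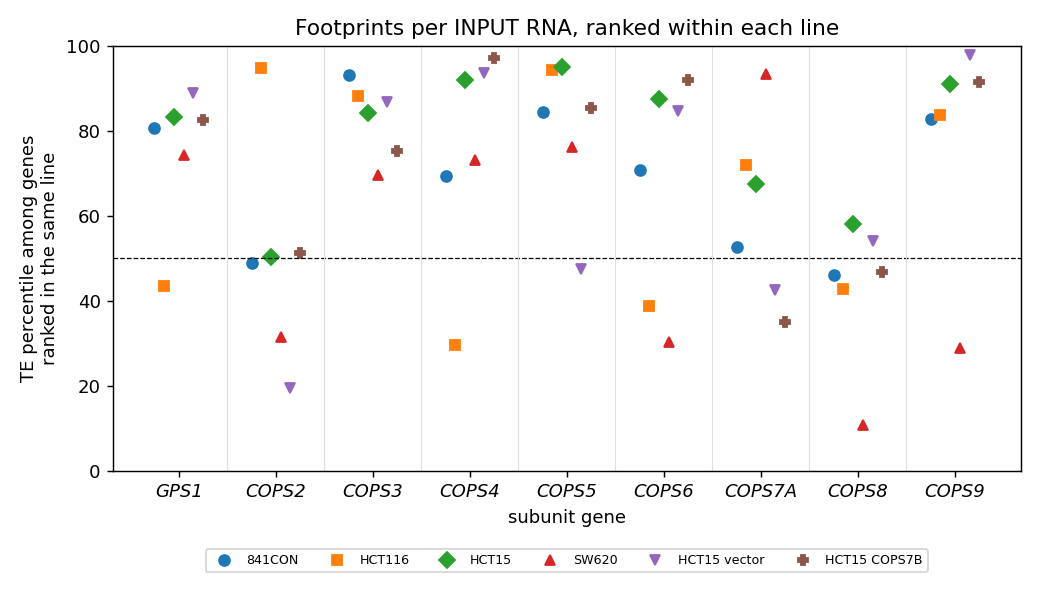
TE percentile of each subunit gene among the genes ranked in the same population, with 50 as the dashed line and 1 symbol per population. COPS3, COPS5 and COPS9 are mostly above 75, COPS8 stays at or below 58.1, and GPS1, COPS4 and COPS6 drop below 50 in HCT116.

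The order of the populations differed from gene to gene. HCT116 had the highest footprint mean for COPS2, COPS3, COPS5 and COPS7A and the lowest for COPS4 and COPS8. HCT15 had the highest for GPS1, COPS4 and COPS6, and SW620 the lowest for GPS1, COPS6 and COPS9. The highest over the lowest footprint mean was 128 for COPS4, 12.4 for COPS6 and 9.95 for COPS8, and between 2.99 and 5.23 for the other genes, while for RNA it ran from 1.87 (COPS5 and COPS9) to 6.89 (COPS2). For GPS1, COPS4 and COPS6 none of the 5 neighbouring pairs in the footprint order had overlapping libraries. The order was set by the same 2 libraries per group, and the share of all genes without overlap was not counted. A lack of overlap is no test of the order. COPS4 footprints were 108.3 and 109.9 CPM in the vector line and 107.8 in each COPS7B library (log2 -0.02 ± 0.483, not passed). For COPS7A all 5 neighbouring pairs overlapped in both assays, and for COPS5 and COPS9 all 5 did in RNA. Neighbours in these orders cannot be told apart beyond the spread, but populations farther apart in them can differ. COPS7A RNA was 125.4 and 137.5 CPM in HCT116 and 67.2 and 52.1 in HCT15, and it passed among the cancer lines (edgeR F test, adjusted p = 0.023). Summed over the 9 genes, footprints were 1762 and 1765 CPM in HCT15, 1259 and 1167 in 841CON, 1166 and 1145 in HCT116, and 792 and 549 in SW620.

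The RNA of the subunits did not follow a common profile over the 12 INPUT libraries. The correlation of each gene's log2 CPM with the mean of the other 8 ran from -0.49 for GPS1 to 0.58 for COPS4 (Pearson's r over 12 libraries of 6 populations, which share depth and library effects). Among 11929 other genes, ENSG00000009844 (r = 0.901) and ENSG00000100722 (r = 0.887) were most like the members' mean profile, and the tables used here do not pair them with names.

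The vector line and parental HCT15 differ by the vector and may differ by culture history. Their files differ too, since only the vector and COPS7B files carry summary lines that name no gene. The parts of these differences in the values below cannot be told apart. No subunit passed in RNA, footprints or TE by edgeR, where 0.670%, 10.5% and 0.175% of all genes did. At an unadjusted p under 0.05 there were 0, 3 and 1 members. Over all genes there were 1392 and 3263 of 11938 in RNA and footprints and 1120 of 9738 in TE. DESeq2 called 0, 1 and 0 members, against 341, 1824 and 210 genes. The 3 members under an unadjusted p of 0.05 in footprints were COPS5, COPS2 and COPS4, all with vector values below both parental libraries. COPS5 footprints were 27.9 and 52.7 CPM against 99.3 in each parental library (log2 -1.31 ± 0.442, edgeR adjusted p = 0.062), and DESeq2 called this change at 0.033 (range over the alternatives 0.033 to 0.42). Its RNA was 41.1 and 48.1 CPM against 27.2 and 27.9, and its TE change of -2 ± 0.623 did not pass (edgeR adjusted p = 0.19). COPS2 footprints were 25.9 and 62.6 CPM against 94.4 and 148 (-1.47 ± 0.629, edgeR adjusted p = 0.14), and COPS4 footprints 108 and 110 CPM against 156 and 343 (-1.20 ± 0.488, edgeR adjusted p = 0.12). The COPS4 change passed without HCT15 RPF replicate 1 (-1.65, adjusted p = 0.033, range 0.033 to 0.67). The members' median footprint change was -0.61, against 0 over all tested genes.

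Overexpression of COPS7B was compared with the vector line to ask whether the other subunits follow. None passed in RNA, footprints or TE by edgeR, against 17.5%, 17.3% and 0% of all genes. For TE no gene passed among 9542, with 132 at an unadjusted p under 0.05, and DESeq2 called 0 genes. The members had 1, 1 and 0 unadjusted p under 0.05, against 3261 and 3462 of 11938 genes in RNA and footprints. DESeq2 called 1, 0 and 0 members, against 2123 and 2170 genes in RNA and footprints. Median changes of the members were 0.15 in RNA, -0.02 in footprints and -0.15 in TE, against 0.08, 0.05 and -0.03 over all tested genes.

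COPS8 was the subunit with the largest fitted change in RNA and in footprints. Its RNA was 71.5 and 72.4 CPM in the COPS7B line and 26.1 and 27.2 in the vector line, and its footprints were 68.0 and 58.9 CPM against 23.98 and 30.4. Libraries of the 2 lines did not overlap in either assay. The changes of 1.43 ± 0.577 in RNA (edgeR adjusted p = 0.10) and 1.23 ± 0.576 in footprints (edgeR adjusted p = 0.16) did not pass. They passed when only the vector and COPS7B libraries were fitted (0.0019 and 0.017), and DESeq2 called the RNA at 0.046, with ranges over the alternatives of 0.0019 to 0.32 and 0.017 to 0.55. Parental HCT15 stood between, at 35.5 and 43.8 CPM in RNA and 42.0 and 46.5 in footprints.

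COPS7A, the paralog of the overexpressed subunit, had nearly equal values in both lines. Its RNA was 83.3 and 71.1 CPM in the COPS7B line and 68.4 and 79.9 in the vector line, and its footprints were 56.4 and 59.5 CPM against 72.0 and 50.9. The changes were 0.06 ± 0.382 in RNA, -0.09 ± 0.383 in footprints and -0.15 ± 0.542 in TE, and these standard errors leave room for a change of either sign. COPS4 was as close, with footprints of 108 CPM in each COPS7B library against 108 and 110. COPS6 footprints were 269 and 277 CPM against 257 and 226 (log2 0.18 ± 0.352, not passed). COPS2 RNA was 47.3 and 50.5 CPM against 110 and 71.7 (-0.90 ± 0.613, edgeR adjusted p = 0.40, and 0.022 with only the compared libraries fitted), and COPS9 footprints were 129 and 151 CPM against 257 and 179 (-0.64 ± 0.419, edgeR adjusted p = 0.34).

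**Figure D4:**
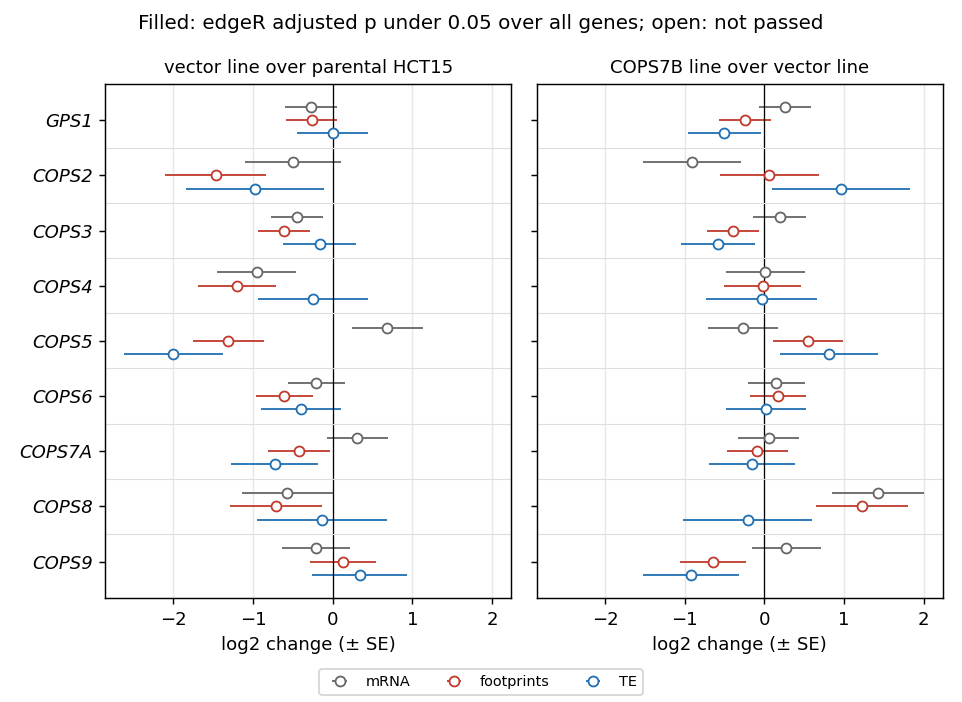
Log2 change of RNA (grey), footprints (red) and TE (blue) of each subunit gene in the vector line over parental HCT15 and in the COPS7B line over the vector line, with the standard error of edgeR's fit. All points are open, since no subunit passed, and COPS8 in the COPS7B line lies farthest to the right, at 1.43 in RNA and 1.23 in footprints.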

How the data were processed

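Ribosome footprints (RPF) and INPUT RNA were measured in 12 groups of 2 libraries. Each file holds raw counts per Ensembl gene, as deposited by the authors; HTSeq 2.0.2, STAR 2.7.9, cutadapt 3.5 and GRCh38 are listed, without settings, per the submitters' processing notes. The strand setting, annotation release and counted feature were each not given in the sources used here. The 8 vector and COPS7B files carry summary lines that name no gene, which held 53.6% to 76.0% of INPUT reads and 80.5% to 90.8% of RPF reads and were left out.

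All 24 libraries entered 1 edgeR quasi-likelihood model (edgeR 4.0.16, R 4.3.3) that gave each group its own mean, with edgeR's filter at a minimum count of 10 and trimmed-mean scaling within each assay, which assumes that most genes do not change. TE was tested as the assay-by-line interaction where INPUT libraries averaged 10 counts or more in every line compared. Standard errors are the log2 change over the root of the test's F and are approximate. Tests were two-sided, with adjustment over all genes tested. The procedure was tested on simulated data. DESeq2 1.42.0, other scalings, no filter, replicate blocks, the compared libraries alone, close pairs summed and leaving out each library were tried.

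All 9 members were named by rule; members, comparisons and alternatives were chosen with earlier results of these data known. Lists of cullin, neddylation, cullin adaptor, proteasome lid, eIF3 and cell type marker genes, set down by symbol, could not be matched to identifiers and were not analysed here. Replicate numbers did not pair INPUT with RPF libraries (correlations of deviations from -0.117 to 0.223 over the 6 populations). Intervals cover counting error only, since no molecular identifiers separate copies of a molecule.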

Additional observations from a re-analysis of the deposited data

Results flagged for a closer look

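Several subunits differed among HCT116, HCT15 and SW620 by a test of that difference itself, edgeR's quasi-likelihood F test over the 3 lines. RNA passed for 6 of 9 members, footprints for 6 and TE for 5, against 46.0%, 66.1% and 52.7% of all genes tested. Only the RNA and footprint calls of GPS1 and the footprint and TE calls of COPS4 and COPS6 were kept in every alternative run. For RNA the adjusted p was 5.9e-05 for GPS1, 0.0063 for COPS2, 0.033 for COPS4, 0.0075 for COPS6, 0.023 for COPS7A and 0.0097 for COPS8. For footprints it was 0.0034 for GPS1, 0.01 for COPS3, 1.7e-06 for COPS4, 2.5e-06 for COPS6, 0.0041 for COPS8 and 0.0072 for COPS9. For TE it was 0.0011 for GPS1, 0.019 for COPS2, 0.00051 for COPS4, 0.00025 for COPS6 and 0.012 for COPS9.

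COPS4 in HCT116 would be worth a second look in the reads, with 1 and 3 footprint counts beside 34 and 60 INPUT counts. The HCT116 footprint libraries are a close pair in which 1827 of 9681 ranked genes (18.9%) had no count. In 841CON it was 447 of 9757 (4.58%), in HCT15 119 of 10173 (1.17%) and in SW620 499 of 9404 (5.31%). The part of that gap in the COPS4, COPS6 and COPS8 values was not tested.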

How the results depend on the processing

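Of 24 member calls in the 15 pairwise results, 8 were kept in every alternative run: RNA of GPS1 and COPS3, footprints of COPS3, COPS4 and COPS6 and TE of GPS1 and COPS4 in HCT116, and footprints of COPS6 in SW620. Over all results and settings, 1976 of 2133 member values stayed on their side of the threshold with no called value turning, 110 lost a call and 45 gained one. Of 1719 log2 changes among them, 92 had the opposite sign, 90 of these passing in neither fit. The other 2 were called values: without 841CON INPUT replicate 2, the HCT116 RNA changes of COPS2 and COPS4 were 0.489 and 0.0481, the range over left-out libraries being -2.48 to 0.489 and -2.21 to 0.0481.

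Counts of members called that moved by over 1.5 times are as follows. For settings that kept both libraries of each group, the count of all genes called is in brackets. With close pairs summed they were 2 for RNA, 3 for footprints and 2 for TE in HCT116, 0 for footprints in HCT15, 1 for footprints and 0 for TE in SW620, and 1 for RNA and 2 for TE among the cancer lines. With only the compared libraries they were 2 for RNA (2784) and 9 for footprints (8414) in HCT116. In HCT15 they were 0 for RNA (0) and 1 for footprints (5144), and in SW620 0 for RNA (2747) and 0 for TE (288). In the COPS7B line they were 2 for RNA (4189) and 1 for footprints (4106). The main fit called 7078 genes for footprints in HCT116 and 4226 for RNA in HCT15. With DESeq2 they were 2 for RNA (4596) and 1 for footprints (6146) in HCT15, and 1 for footprints (4590) and 1 for TE (1770) in SW620. They were 1 for footprints (1824) in the vector line and 1 for RNA (2123) in the COPS7B line. With library size alone, SW620 had 1 for footprints (4315) and 0 for TE (1394), and with no low-count filter 1 for TE (1723).

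Leaving out each library in turn gave 2 to 5 for RNA, 4 to 5 for footprints and 3 to 5 for TE in HCT116, 1 to 5, 1 to 2 and 0 to 1 in HCT15, and 2 to 6, 1 to 2 and 0 to 5 in SW620. It gave 2 to 6, 5 to 7 and 4 to 6 among the cancer lines, 0 to 1 for vector footprints, and 0 in the other results of the vector and COPS7B lines.

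The replicate block over all lines gave 4 members for HCT116 RNA and moved no other count. The replicate block within each line gave 3 for TE in HCT116, 0 in SW620 and 4 among the cancer lines, and called 1007 genes in all for TE in SW620, against 1518. With the SW620 numbers crossed, an alternative chosen after seeing the data, 0 members and 1225 genes passed. Over all genes, close pairs summed gave 1822 TE calls in HCT116 against 3880, 229 in HCT15 against 1483 and 340 in SW620, and the compared libraries alone gave 0 in HCT15 and 288 in SW620. Other scalings shifted the median log2 change of all genes by -0.262 to 0.425. Library size alone moved the share of calls that were higher from 47.3% to 61.6% for RNA in HCT15 and from 45.7% to 57.6% for footprints in the COPS7B line, and DESeq2 moved it from 88.2% to 68.6% for TE in the vector line, with 210 calls against 17 (RNA 341 against 80). The cause of these shifts was not tested. Depth limits the SW620 footprints most, where the 9 members rest on 3 to 27 pooled counts.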
